A study of Mus musculus with 3 samples.

Results

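The colony-stimulating factors and their receptors were followed as 8 genes, the ligand genes Csf1, Csf2 and Csf3 and the receptor genes Csf1r, Csf2ra, Csf2rb, Csf2rb2 and Csf3r. They were taken from the gene tables by symbol, and all 8 were found among 55536 mouse genes, 22028 of them protein-coding. RNA came from the cytosolic fraction of bone-marrow-derived macrophages of C57BL/6J mice, a standard inbred strain with no added allele. The cells had received 100 ng/ml Lipid A, the part of bacterial lipopolysaccharide that TLR4 recognises, for 12 h, had been washed out for 12 h, and were then restimulated with Lipid A at 100 ng/ml for 120 min. This 1 group has 3 libraries, replicates 1, 2 and 3, of ribosome-depleted total RNA. No unstimulated or singly stimulated cells were analysed here, so every value describes restimulated cells and no response to Lipid A can be read from it. The labels call the 3 libraries biological replicates. They name a single donor, the strain, and do not tell whether separate animals or cultures were used. The spread between libraries may therefore still be technical. The growth factor in the culture medium is not given in the sources used here.

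Colony-stimulating factors are secreted proteins that keep blood cells of the myeloid lineages alive, dividing and maturing. CSF1, also called M-CSF, acts on macrophages and their precursors through CSF1R, a receptor tyrosine kinase. CSF2, also called GM-CSF, acts through a specific alpha chain, CSF2RA, that pairs with a signalling beta chain and the kinase JAK2. CSF3, also called G-CSF, drives the making of neutrophils through CSF3R, a receptor that pairs with itself. The mouse has a second beta chain gene beside Csf2rb, named Csf2rb2, whose product serves interleukin 3 alone, while the Csf2rb product is shared by GM-CSF, interleukin 3 and interleukin 5. Bone-marrow-derived macrophages depend on CSF1 for survival, and CSF1R is among the defining receptors of the lineage.

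Depth was 29376859 expected counts in replicate 1, 64822118 in replicate 2 and 37665844 in replicate 3, where an expected count is a read count after reads that match several genes or transcripts have been shared out. Levels are in TPM, a share of all transcripts in the library that is corrected for transcript length. Of 15 macrophage markers, 14 reached 1 TPM in all 3 libraries, led by Lyz2 at 2751 ± 2.59 TPM and Ctss at 1092 ± 178 TPM (SD, n = 3), and only Cx3cr1, at 0.0900 ± 0.0265 TPM, did not. Without Csf1r, which is also a member of the family described here, the marker list summed to between 5554 and 6181 TPM. Markers of T and NK cells, B cells, dendritic cells, mast cells and fibroblasts gave no gene at 1 TPM in all 3 libraries, and endothelial markers gave 2 of 7, Kdr and Vwf.

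The family split into a high receptor side and an uneven ligand side. All 5 receptor genes and 1 of 3 ligand genes, Csf1, reached 1 TPM in all 3 libraries, which makes 6 of 8 members, against 39.1% of all protein-coding genes. Csf1r was highest, at 121 ± 15.7 TPM (SD, n = 3), above 98.4% of protein-coding genes. Csf1 followed at 41.9 ± 15.2 TPM, and 4 receptor genes lay close together below it, Csf2rb at 34.1 ± 6.80, Csf2rb2 at 30.8 ± 4.47, Csf3r at 29.7 ± 7.30 and Csf2ra at 27.6 ± 6.25 TPM. Csf2, at 1.29 ± 1.09 TPM, and Csf3, at 0.233 ± 0.118 TPM, stood far lower. Going down this order, the step Csf1r over Csf1 was larger than the spread between libraries, with a log2 difference in TPM of 1.60 ± 0.44. The next 4 steps, through Csf1, Csf2rb, Csf2rb2, Csf3r and Csf2ra, were each smaller than their SD and changed sign between libraries, so no neighbours among these 5 genes were told apart. The step Csf2ra over Csf2, 4.75 ± 1.04 on the log2 scale, and the step Csf2 over Csf3, 2.22 ± 0.72, were again larger than the spread and had the same sign in all 3 libraries.

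**Figure D1:**
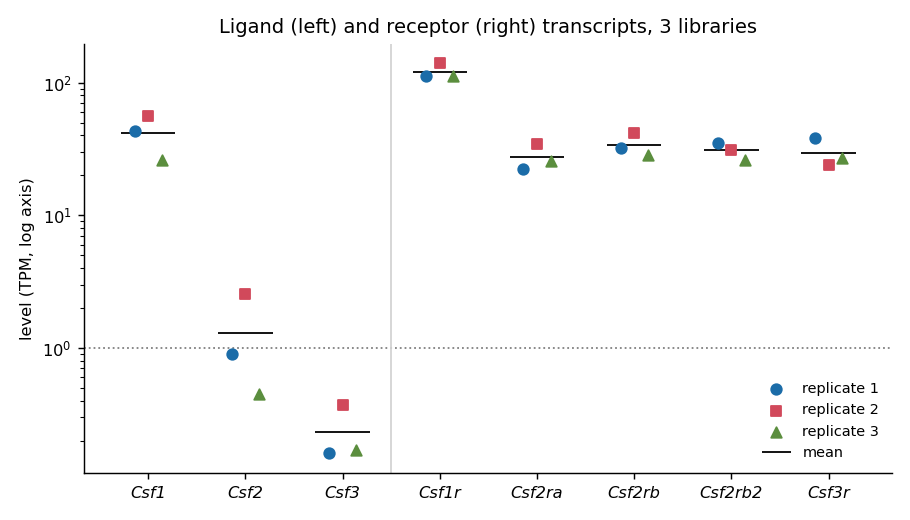
Level of the 8 genes in TPM on a log axis, with 1 symbol per library and a line at the mean; the dotted line marks 1 TPM. Csf1r lies above the other genes in each library, 5 genes overlap between 22.4 and 56.5 TPM, and Csf2 and Csf3 lie near or under the dotted line.

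Csf1, the macrophage growth factor itself (ENSMUSG00000014599.10, minus strand of mm10 chromosome 3, 107741048 to 107760469), had 43.1, 56.5 and 26.0 TPM in replicates 1, 2 and 3. Replicate 2 was the highest and replicate 3 the lowest, 2.17-fold apart. Most of this RNA had the annotated form that encodes the longest product. Transcripts with the long coding sequence of 1656 bases, Csf1-201 and Csf1-203, took 68.6%, 73.6% and 74.3% of Csf1 TPM, a mean of 72.2 ± 3.10% (SD, n = 3). Csf1-201 alone took 67.0 ± 2.29%. In Csf1-202 exon 6 has 131 bases in place of 1016, which leaves a coding sequence of 771 bases, and this transcript took 15.8 ± 1.51%. As background, the long exon 6 carries the stretch from which secreted CSF1 is cut and its shortened form leaves CSF1 on the cell surface for longer. Csf1-205, an annotated fragment of 773 bases with 547 coding bases, took 11.4 ± 2.31%. Csf1-203 differs from Csf1-201 in its last exon, 246 bases in place of 2098, and in exon 1, 218 bases in place of 445. It took 5.21 ± 0.898%. The share of Csf1-202 rests on how reads were divided among transcripts, since in the second deposited quantification it was 2.55 ± 1.00% and that of the long coding sequence 77.4 ± 1.27%.

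Csf2, the GM-CSF gene (ENSMUSG00000018916.5, minus strand of chromosome 11, 54247271 to 54249667), had 0.900, 2.53 and 0.450 TPM in replicates 1, 2 and 3. These levels came from 24, 180 and 18 reads, whose exact 95% Poisson intervals of 15.4 to 35.7, 155 to 208 and 10.7 to 28.4 reads cover counting error only. Replicate 2 stood above both other libraries in reads and in TPM. The read intervals of replicates 1 and 3 overlap, and no read interval given here is scaled for depth, which was highest in replicate 2. Csf3, the G-CSF gene (ENSMUSG00000038067.2, plus strand of chromosome 11, 98701263 to 98703629), had 0.160, 0.370 and 0.170 TPM from 9, 54 and 14 reads, with Poisson intervals of 4.12 to 17.1, 40.6 to 70.5 and 7.65 to 23.5 reads. It was the lowest member in each library, and here too replicate 2 was highest. Each gene has 1 annotated transcript. The gene spans of Csf2 and the antisense gene Gm12223, introns included, overlap by 2068 bases. Gm12223 was listed at 0 in all 3 libraries. Whether counting used strand is not given in the sources used here.

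Csf2 and Csf3 are textbook cases of messenger RNAs with AU-rich elements, stretches of repeated AUUUA in the 3′ untranslated region (UTR) to which decay factors such as tristetraprolin bind. The motif ATTTA was counted on the mRNA strand of the annotated 3′ UTRs, with overlapping copies counted. Csf2 had 9 copies in 317 bases, 5 of them within 30 bases, and 0.0401% of 14951 annotated mouse 3′ UTRs of within 2-fold of its length had as many in any 30-base window. Csf3 had 6 copies in 669 bases, at most 3 within 30 bases, as 1.35% of 16720 such UTRs had. Csf1-201 had 4 copies in 2111 bases, at most 2 within 30 bases, as 27.6% of 14152 such UTRs had. The shorter UTR of Csf1-203, 259 bases, had 0 copies, and the transcripts with the long last exon, Csf1-201 and Csf1-202, took 82.8 ± 1.04% of Csf1 TPM. Among the receptors, Csf1r-201 had 2 copies and Csf1r-202 3, with at most 1 within 30 bases, and the transcripts of Csf2ra, Csf2rb, Csf2rb2 and Csf3r with the complete coding sequence had 0 copies each. The UTRs of those 4 genes have 593 to 1816 bases, and 57.5% to 86.7% of UTRs within 2-fold of those lengths hold at least 1 copy. The richest 30-base window of each ligand is shown because the density of the motif differs among the ligands. The windows are written 5′ to 3′ as on the mRNA with T for U and the motif in capitals, from GENCODE M21 transcripts on mm10, at chr11:54247320-54247349 (minus strand) for Csf2, chr11:98702992-98703021 (plus strand) for Csf3 and chr3:107741096-107741125 (minus strand) for Csf1.
Csf2-201: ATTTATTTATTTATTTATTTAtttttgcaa
Csf3-201: ATTTAtctctATTTAatATTTAtgcatatt
Csf1-201: ATTTAaatatctATTTAaaaaataggaagc
A match is a run of letters and not a measured binding site.

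Other cytokines that act through related receptors were low or absent. Of 7 related ligands, Flt3l, the FLT3 ligand, at 3.43 ± 0.765 TPM, and Kitl, the KIT ligand, at 1.93 ± 1.03 TPM (SD, n = 3), reached 1 TPM in all 3 libraries. Il34, the other known ligand of CSF1R, was listed at 0, 0.0400 and 0 TPM in replicates 1, 2 and 3. Il3 and Il5, whose receptors share the Csf2rb chain, and Epo and Thpo were listed at 0 in all 3 libraries. Of 6 related receptors, Il3ra, the alpha chain for interleukin 3, reached 1 TPM, at 15.3 ± 1.23 TPM, and Il5ra did not, with at most 0.0100 TPM.

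Csf1r, the receptor for CSF1 (ENSMUSG00000024621.16, plus strand, 61100598 to 61132149 of chromosome 18), had 112, 139 and 112 TPM in replicates 1, 2 and 3. Replicates 1 and 3 were nearly equal and replicate 2 was higher. Its read counts were more even, since counts scaled by library size with TMM (CPM) were 740.5, 780 and 720.1 and differed by no more than 1.08-fold. To Csf1r-205, an annotated transcript of only 416 bases, the quantification assigned 11.9, 1230 and 258 expected counts. Because TPM divides by length, these few counts made up 1.18%, 35.5% and 17.1% of Csf1r TPM. Transcripts with the complete coding sequence of 2931 bases, Csf1r-201 and Csf1r-202, held 99.9%, 97.5% and 99.0% of the gene's expected counts. Their TPM was 111, 89.8 and 92.8 in replicates 1, 2 and 3, so that replicate 2, the highest by the gene total, was the lowest by these transcripts. That order is for TPM as deposited, of which all protein-coding genes held 32.5%, 26.5% and 27.1% in replicates 1, 2 and 3. Whether it holds for these transcripts on another scale was not tested.

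Csf1r-201 and Csf1r-202 encode the same length of product and differ at their ends. Csf1r-202 starts 3′ of Csf1r-201 and runs 1015 bases further at its 3′ end. There 873 bases lie opposite Hmgxb3, a protein-coding gene on the minus strand, which had 2.91, 3.12 and 3.58 TPM. In the first quantification Csf1r-202 took 63.6 ± 6.22% of Csf1r TPM and Csf1r-201 18.4 ± 16.2% (SD, n = 3). In the second, Csf1r-202 took 6.08 ± 0.434% and Csf1r-201 59.6 ± 9.40%. By mean share over the libraries, Csf1r was the 1 member of 8 whose leading transcript differed between the quantifications, so the 3′ end in use cannot be stated from these tables. The short Csf1r-205 took 33.9 ± 9.84% in the second.

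Csf2ra, the alpha chain that binds GM-CSF (ENSMUSG00000059326.7, minus strand of chromosome 19, 61223957 to 61228429), had 22.4, 34.5 and 25.8 TPM in replicates 1, 2 and 3, with replicate 2 the highest. It was the receptor gene with the largest part outside protein-coding transcripts. Its protein-coding transcripts took 60.1%, 60.1% and 57.9% of its TPM, a mean of 59.3 ± 1.27% (SD, n = 3). Transcripts annotated as retained introns took 25.9 ± 2.06%, most of it Csf2ra-205 of 632 bases at 20.7 ± 6.15%. Processed transcripts without a coding sequence took 14.8 ± 2.96%, which was Csf2ra-204 of 330 bases. In the second quantification the protein-coding part was 58.1 ± 6.75%. The TPM of the coding Csf2ra transcripts was 13.4, 20.7 and 14.9 in replicates 1, 2 and 3, and these held 84.6%, 87.5% and 78.3% of the gene's expected counts.

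Csf2rb, the beta chain shared by GM-CSF, interleukin 3 and interleukin 5 (ENSMUSG00000071713.6, plus strand of chromosome 15, 78325752 to 78353847), had 32.0, 41.8 and 28.7 TPM in replicates 1, 2 and 3. Csf2rb2, the beta chain for interleukin 3 (ENSMUSG00000071714.7, minus strand of chromosome 15, 78282507 to 78305721), had 35.1, 31.2 and 26.2 TPM. In deposited TPM the first gene was highest in replicate 2 and the second in replicate 1, and the ranges overlapped. On TMM-scaled CPM Csf2rb2 too was highest in replicate 2, at 246, 258 and 204 in replicates 1, 2 and 3. The log2 ratio of Csf2rb over Csf2rb2 was -0.13, 0.42 and 0.13, a mean of 0.14 ± 0.28 (SD, n = 3), so neither beta chain gene was above the other beyond the spread. As with Csf1r, a short transcript entered the gene total in replicate 2. Csf2rb-202 of 397 bases had 0, 240 and 15.7 expected counts but took 0%, 25.4% and 4.50% of Csf2rb TPM. Transcripts with the complete coding sequence of 2688 bases stood at 30.8, 30.7 and 26.0 TPM in replicates 1, 2 and 3, while the Csf2rb2 transcript with 2634 coding bases stood at 33.1, 28.5 and 24.8 TPM. In the second quantification Csf2rb-202 took 35.1 ± 7.50% of Csf2rb TPM.

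The beta chain genes lie near each other in opposite orientation and are close copies, so reads from one can match the other. Over 2628 aligned coding positions, Csf2rb-201 and Csf2rb2-201 were identical at 95.2%, and the longest identical run was 242 bases. Along the whole transcripts identity was 91.0%. Still, 18.9% of 50-base stretches of Csf2rb-201 and 19.0% of those of Csf2rb2-201 occurred whole in the other transcript, and for 100-base stretches the share was 7.20% in each. The quantifier's own posterior SD of the count, 9.00, 15.4 and 10.8 reads in replicates 1, 2 and 3, was small beside the 6499 to 17229 reads of Csf2rb and the 7095 to 16250 reads of Csf2rb2. The window shown is the 60-base coding window with the most differences among those within a single exon and without an alignment gap. It holds 13 differing bases, in capitals. It is written 5′ to 3′ on the coding strand, from GENCODE M21 transcripts on mm10, at chr15:78338893-78338952 (plus strand, coding bases 304 to 363) for Csf2rb and chr15:78294379-78294438 (minus strand, coding bases 307 to 366) for Csf2rb2.
Csf2rb-201: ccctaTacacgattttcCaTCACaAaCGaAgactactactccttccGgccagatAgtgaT
Csf2rb2-201: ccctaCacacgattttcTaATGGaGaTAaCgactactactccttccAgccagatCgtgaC

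**Figure D2:**
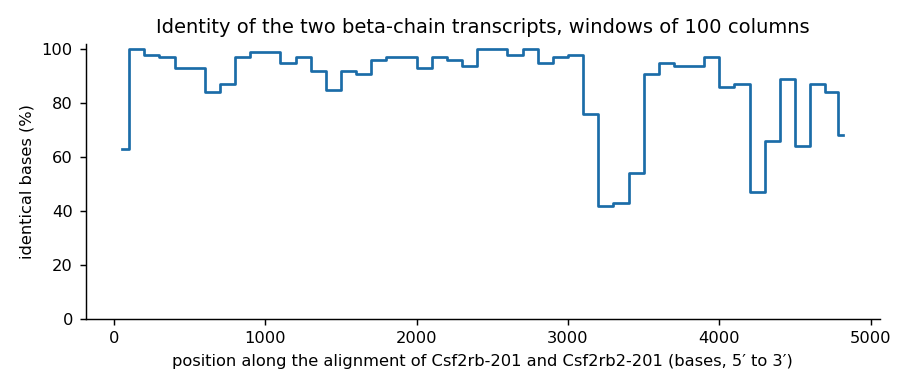
Share of identical bases in windows of 100 alignment columns along the Csf2rb-201 and Csf2rb2-201 transcripts, from the 5′ to the 3′ end. Most windows lie above 90%, some reach 100%, and stretches toward the 3′ end drop as low as 42.0%.

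Csf3r, the G-CSF receptor (ENSMUSG00000028859.14, plus strand of chromosome 4, 126024550 to 126044440), had 37.9, 24.0 and 27.3 TPM in replicates 1, 2 and 3, and replicate 1 was the highest. Csf3r-201 and Csf3r-202 start at different first exons and carry coding sequences of the same length, 2511 bases. Csf3r-201 took 68.0 ± 6.39% and Csf3r-202 15.6 ± 2.36% of its TPM in the first quantification (SD, n = 3), against 45.1 ± 7.42% and 39.7 ± 8.12% in the second. Csf3r-201 led in all 3 libraries of the first, whereas in the second Csf3r-202 led in replicates 2 and 3, at 45.2% and 43.5%. The processed transcript Csf3r-203 took 10.8 ± 4.31% in the first and was listed at 0 in the second. Csf3r is best known from neutrophils, and its level was set beside other neutrophil genes. Of the 12 other neutrophil markers on the list, 3 had at least 1 TPM in each library, namely Mmp8 at 1.98 ± 0.273 TPM, S100a8 at 2.08 ± 0.572 TPM and S100a9 at 3.48 ± 1.38 TPM. The 12 summed to 9.90, 6.30 and 9.47 TPM in replicates 1, 2 and 3, below Csf3r alone in each library. Cxcr2 was listed at 0 in all 3 libraries and Ly6g reached at most 0.0100 TPM. In bulk RNA, fewer cells of a type and less RNA per cell cannot be told apart, and the part of neutrophils in the Csf3r level was not tested.

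**Figure D3:**
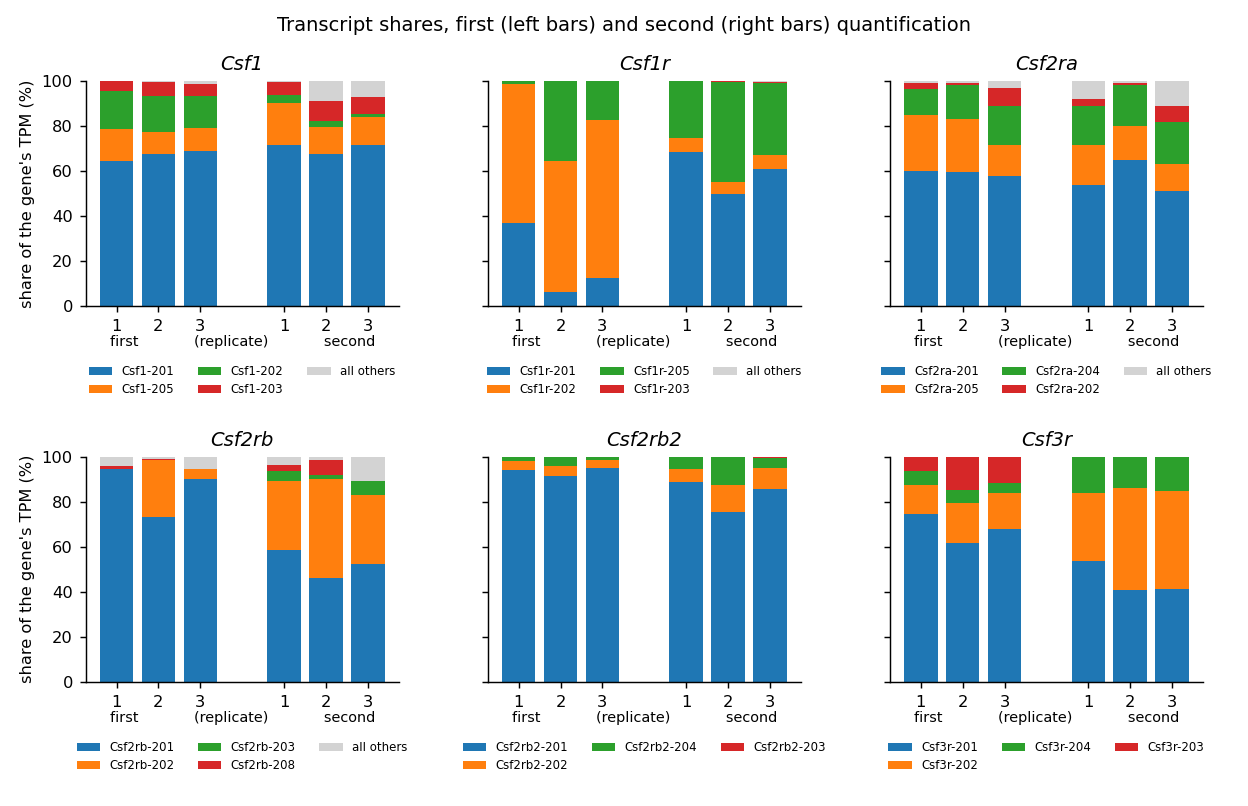
Share of each gene's TPM taken by its transcripts, in percent, for the 6 members above 1 TPM in all libraries; left bars show the first quantification and right bars the second, each for replicates 1, 2 and 3. Csf1-201, Csf2ra-201 and Csf2rb2-201 lead in both sets of bars, whereas Csf1r-202 leads on the left and Csf1r-201 on the right.

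The balance of receptor and ligand was read from ratios within each library. Csf1r over Csf1 was 2.61, 2.47 and 4.31 in replicates 1, 2 and 3, a log2 ratio of 1.60 ± 0.44 and a geometric mean of 3.03-fold (SD on the log2 scale, n = 3). The receptor was above its ligand in each library, and the ratio was largest in replicate 3, where Csf1 was lowest. Csf1 over Csf3 was 269, 153 and 153, a log2 ratio of 7.53 ± 0.47, though its size rests on the 9 to 54 reads of Csf3. Csf2rb over Csf2ra was 1.43, 1.21 and 1.11, a log2 ratio of 0.31 ± 0.19. Restricted to protein-coding transcripts, a choice made after seeing the data, the log2 ratio of Csf2rb over Csf2ra was 1.03 ± 0.17, more than 1.5 times the fold of the gene totals. In the second quantification it was 0.87 ± 0.14. The beta chain was above the alpha chain in the mean under each of these settings.

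The second quantification gave lower TPM for each member in the mean but a like division into high and low genes. Csf1r stood at 79.0 ± 20.0 TPM, Csf2rb at 25.7 ± 8.40, Csf1 at 21.5 ± 11.1, Csf2rb2 at 15.3 ± 3.07, Csf3r at 14.2 ± 1.55 and Csf2ra at 14.0 ± 4.19 TPM (SD, n = 3). Csf2 stood at 0.678 ± 0.673 TPM and Csf3 at 0.117 ± 0.0731 TPM. The log2 ratio of Csf2rb over Csf2rb2 was 0.14 ± 0.28 in the first quantification and 0.72 ± 0.23 in the second, where it was larger than the spread. The short Csf2rb-202 had the larger share in the second quantification. Over transcripts with the longest coding sequence, a choice made after seeing the data, the ratio was 0.02 ± 0.11 in the first.

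**Figure D4:**
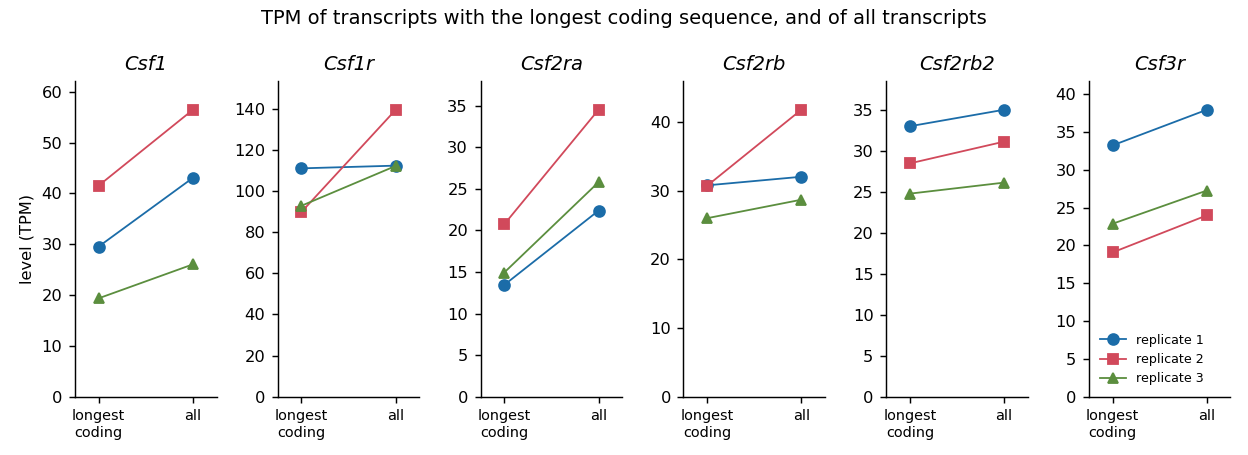
TPM of transcripts with the longest coding sequence (left of each panel) and of all transcripts of the gene (right of each panel), with 1 line per library and axes from 0 that differ between panels. In Csf1r the replicate 2 line, at 89.8 TPM on the left and 139 TPM on the right, crosses the others, and in Csf2rb it is steeper than the others.

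Over all 3 libraries, the ligands had larger ratios between libraries than the receptors, Csf2 and Csf3 on few reads, a difference that was not tested. On TMM-scaled CPM the highest over the lowest library was 6.22-fold for Csf2, 2.75-fold for Csf3 and 2.36-fold for Csf1. It was 1.80-fold for Csf2ra, 1.40-fold for Csf3r, 1.29-fold for Csf2rb, 1.26-fold for Csf2rb2 and 1.08-fold for Csf1r. The order rests on replicate 2. Without it, a choice made after seeing the data, the ratio was 1.81-fold for Csf2, 1.45-fold for Csf1 and 1.14-fold for Csf3, and Csf3 then lay below Csf2ra at 1.32-fold, Csf3r at 1.30-fold and Csf2rb2 at 1.21-fold. Csf1 stood at 220, 359 and 152 CPM in replicates 1, 2 and 3. On this scale 7 of 8 members were highest in replicate 2, where 38.8% of all genes tested were highest, and Csf3r was highest in replicate 1. A chi-square test of the counts against library size, which compares libraries and not conditions, called 8 of 8 members at a Benjamini-Hochberg adjusted p under 0.05 over all genes. The background was 72.0% of 14568 genes called, so the call itself says little about the family. Without replicate 2, 6 of 8 members were called, Csf2 and Csf3 being the exceptions, against 52.7% of 14016 genes.

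**Figure D5:**
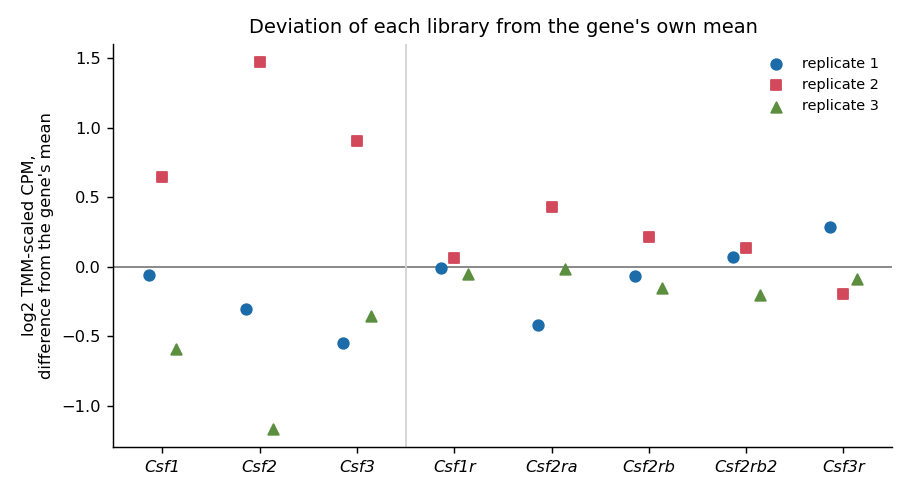
Log2 of TMM-scaled CPM minus the gene's mean over the 3 libraries, with 1 symbol per library, ligands left and receptors right of the grey line. The replicate 2 symbol is the highest for each gene but Csf3r, and the symbols lie widest apart for Csf2 and closest for Csf1r.

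Set among protein-coding genes of within 2-fold of its own mean TPM, Csf2 had a larger coefficient of variation than 99.3% of 2258 genes and Csf1 a larger one than 94.7% of 1521 genes. Csf3r lay above 84.3%, Csf2ra above 81.7%, Csf3 above 78.4%, Csf2rb above 74.5%, Csf2rb2 above 55.5% and Csf1r above 38.5% of genes of like level. These are descriptions of 3 libraries on gene-total TPM, which short transcripts and the set of genes that shares the total can shift. Over transcripts with the longest coding sequence, a choice made after seeing the data, Csf2rb stood at 29.1 ± 2.74 TPM, against 34.1 ± 6.80 TPM for the gene total. For Csf3r the SD did not shrink, at 25.1 ± 7.3 TPM against 29.7 ± 7.3 TPM. On TPM taken over protein-coding and long noncoding genes alone, Csf3r stood at 100.1 ± 13.3 TPM and Csf1r at 417.8 ± 87.8 TPM. Relative to the mean, the SD on that scale was smaller for Csf3r and Csf2rb2 and larger for the other members. Few genes lay near Csf1 over the libraries, and 2 of 3743 protein-coding genes of at least 10 TPM came within a distance of 0.1 of it on centred log2(TPM + 1) values. They were Lsp1, a leukocyte actin-binding protein, at a distance of 0.0571 with 17.3, 23.1 and 9.76 TPM, and H2-M2, a nonclassical MHC class I gene, at 0.0773 with 25.2, 35.4 and 15.0 TPM. S100a4, a calcium-binding protein, came next at 0.123. For Csf3r, 201 genes lay within 0.1, with Plekhm2, Samhd1 and Hmbox1 the nearest. For Csf2ra, 8 genes did, with Crtap, Sap18 and P4hb the nearest. The distance is not scaled for spread, and the SD on these values was 0.55 for Csf1, 0.33 for Csf3r and 0.31 for Csf2ra. The numbers of near genes therefore reflect the size of the differences as well as their pattern.

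The machinery around the receptors was present. Of 19 genes of CSF1R signalling, 18 reached 1 TPM in all 3 libraries, the 3 highest being Tyrobp, the adaptor DAP12, at 536 ± 111 TPM, Grb2, an adaptor to RAS, at 128 ± 23.3 TPM and Ptpn6, the phosphatase SHP-1, at 103 ± 10.5 TPM (SD, n = 3). The kinase gene Fgr was lowest at 0.577 ± 0.0681 TPM. Of 17 genes of GM-CSF and G-CSF signalling, 15 did, among them the survival gene Mcl1 at 165 ± 15.2 TPM and the kinase gene Pim1 at 121 ± 42.8 TPM, and Socs2 was lowest at 0.170 ± 0.0800 TPM. All 11 transcription factor genes listed for Csf1r control did, with Spi1, which encodes PU.1, at 121 ± 14.4, Maf at 45.4 ± 10.6 and Irf8 at 31.3 ± 7.25 TPM highest and Fos at 3.38 ± 0.565 TPM lowest.

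Genes that act on the ligands were likewise present beside low Csf2 and Csf3. Of 10 transcription factor genes listed for control of the ligand genes, 9 reached 1 TPM in all 3 libraries. Whether each raises or lowers the ligands in these cells was not tested. The 3 highest were Atf3 at 149.8 ± 55.7 TPM and the NF-κB subunit genes Nfkb1 at 66.9 ± 4.97 and Nfkb2 at 56.9 ± 5.60 TPM, and Ets1 was lowest at 0.263 ± 0.114 TPM (SD, n = 3). All 11 genes listed for mRNA decay and its regulation reached 1 TPM in all 3 libraries. Among them were Zfp36, which encodes tristetraprolin, at 69.2 ± 33.8 TPM, Hnrnpd, which encodes AUF1, at 43.8 ± 0.890 TPM and Zc3h12a, which encodes Regnase-1, at 39.8 ± 7.70 TPM, and Tia1 was lowest at 2.15 ± 0.584 TPM.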

How the data were processed

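Total RNA of the cytosolic fraction was sequenced from 3 libraries of 1 group. Per the file headers, the authors deposited for each library a gene table and a first transcript table with expected counts, TPM, interval bounds and the percent of a gene's RNA in each isoform, and a second transcript table with estimated counts and TPM. The deposited text files name mm10 and GENCODE M21; the sources used here name neither the aligner nor the quantifiers. All 55536 mouse gene rows matched M21. Rows that name no gene (tRNA, spike-in and phage rows) held 0.350%, 0.169% and 0.168% of the expected counts in replicates 1, 2 and 3 and were left out of library sizes. TPM were kept as deposited, over all rows, and protein-coding genes held 32.5%, 26.5% and 27.1% of them.

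Expected counts were rounded and scaled by TMM (edgeR 4.0.16, R 4.3.3; DESeq2 1.42.0 size factors as an alternative). Genes under 10 counts in every library stayed out of the chi-square test (scipy 1.17.1, numpy 2.4.6, pandas 2.3.3, matplotlib 3.10.9, Python 3.11.15). The test was run on simulated counts before use. With 1 group no contrast could be tested. Second-table values were summed per gene. Transcript shares are from the first transcript table unless said otherwise. All 8 members are named, the 3 highest and the lowest gene of each pathway list (a gene picked by this rule is not reported here), and transcripts of at least 10% of a gene's TPM in any library; other transcripts, Il34, Il5ra and the marker genes were chosen after their values were seen. The members and lists were chosen with earlier results of these data known. Alternatives were the second quantification, leaving out each library, rescaled TPM, other thresholds, pseudocounts, CPM and transcript subsets, the last added after seeing the data.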

Additional observations from a re-analysis of the deposited data

How the results depend on the processing

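The log2 TPM ratio of Csf1r over Csf1, 1.60, moved by less than its SD under each alternative run and was 1.34 to 1.75 with each library left out. That of Csf2rb over Csf2rb2, 0.14, was 0.72 in the second quantification and -0.0012 to 0.28 with libraries left out. That of Csf2rb over Csf2ra, 0.31, was 0.87 in the second quantification, 2.09 on TMM-scaled CPM, where length is not taken out, and, as alternatives chosen after seeing the data, 1.03 over protein-coding transcripts and 0.85 over transcripts with the longest coding sequence. That of Csf1 over Csf3, 7.53, was 8.97 on TMM-scaled CPM, 5.06 and 6.96 with 1 and 0.1 TPM added to both values, and 7.06 over transcripts with the longest coding sequence. Each of these ratios kept its sign under these alternatives, Csf2rb over Csf2rb2 without replicate 2 excepted. The number of members at 1 TPM was 6 in the second quantification, with each library left out and at 5 TPM, 7 on TPM taken over protein-coding and long noncoding genes alone, 7 at 10 expected counts and 8 at 0.1 TPM. Between libraries, 8 of 8 members were called with DESeq2 size factors, without a filter and in the second quantification. Of all genes tested, 71.8%, 50.3% and 82.9% were called under these settings in turn. With replicate 1, 2 or 3 left out, 8, 6 and 8 members were called, against 57.1%, 52.7% and 54% of all genes tested. Mean TPM was lower in the second quantification for each member, and the cause was not tested. The log2 ratio of first over second TPM, averaged over the libraries, was 0.44 for Csf2rb, 0.64 for Csf1r and 1.00 to 1.06 for the others. On TPM taken over the protein-coding and long noncoding genes, mean TPM was 3.37 to 3.51 times the deposited value, since fewer genes share the total. Depth limits Csf2 and Csf3, read from 9 to 180 counts a library. No paired analysis was possible because there is 1 group.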
